A study of Mus musculus with 6 samples.

Results

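H3K27ac, the acetylation of histone H3 at lysine 27 that marks active promoters and enhancers, was examined in mouse quadriceps (Quad) at 8 genes of the muscle atrophy programme: the ubiquitin ligase genes Fbxo32, Trim63 and Fbxo30, the FoxO factor genes Foxo1, Foxo3 and Foxo4, the myostatin gene Mstn, and Klf15. Every peak that the annotation in the peak tables assigned to one of these symbols was taken, whether at a promoter or distal, which gave 43 of 46988 peaks in control mice and 38 of 40721 peaks in detrained mice. Male C57BL/6J mice, wild type by their labels, entered individual cages at 8 weeks of age, and detrained mice had free access to a running wheel for 4 weeks, after which the wheel was removed for 72 hours before harvest, whereas controls had no wheel. Each group comprised 2 H3K27ac libraries, each from a single quadriceps of 1 animal, and 1 input library. The labels give the strain of the H3K27ac mice as C57BL/6 and that of the inputs as C57BL/7 in control and C57BL/8 in detrained mice.

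In resting muscle, insulin and IGF1 signalling keeps FoxO transcription factors out of the nucleus through AKT, and when that signal falls FoxO factors enter the nucleus and activate the genes of the ubiquitin ligases that tag muscle proteins for the proteasome. Myostatin, a secreted TGF-β family ligand made by muscle fibres, limits muscle growth through activin receptors and SMAD proteins and dampens AKT. KLF15 is a zinc finger factor induced by glucocorticoids that acts with FoxO factors on ligase genes and on amino acid breakdown.

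The libraries, C2 and C3 for control and Ex1 and Ex2 for detrained mice, held between 20805019 and 22400894 tags (aligned reads), and between 44.7% and 49.4% of them lay in the listed peaks. Peaks were called once per group, on both libraries together against the input of that group, so whether a peak is listed has no replicate of its own. The control input held 10812470 tags and the detrained input 21298438, and what this did to peak calls and lengths was not tested. The tables were normalised separately and gave no count per library, so no test between groups was made; an exact permutation test of 2 against 2 libraries cannot give a two-sided p below 0.333. A level was expressed as scaled tags, meaning tags per 10000000 total tags, or as scaled tags per kb of the peak (tags per kb), and a ratio as log2 of detrained over control. Groups were called apart when the detrained pair of libraries lay wholly above or wholly below the control pair. As a check of the tissue, 11 of 12 skeletal muscle fibre markers had peaks in each list (none for Tnnt3), as did 4 of 4 endothelial, 3 of 3 fibroblast and 2 of 2 satellite cell markers, whereas of the 3 fat markers Fabp4, which endothelium also expresses, had peaks in both lists (473.8 and 518.3 scaled tags), Adipoq and Plin1 had none, and Ptprc was listed in detrained mice only.

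Reference promoters from RefSeq (GRCm38.p6, the mm10 build of the tables) were found for 6 of the 8 genes; Fbxo32 and Foxo4 had no entry. The 250 bases before the start site are shown for 3 of them, Trim63, Mstn and Foxo1, because these windows lie whole inside a start-site peak in both lists, end at the start that the peak tables use and at the gene's first base in RefSeq, and differ in composition. The Trim63 window is chr4:134314870-134315119, that of Mstn chr1:53061390-53061639 and that of Foxo1 chr3:52268087-52268336, all on the + strand. Capitals mark matches on either strand to the FoxO element (GTAAACA), the glucocorticoid receptor half-site (AGAACA), the SMAD half-site (CAGAC) and the MEF2 core (TATTTTTA or TATTTATA).
Trim63: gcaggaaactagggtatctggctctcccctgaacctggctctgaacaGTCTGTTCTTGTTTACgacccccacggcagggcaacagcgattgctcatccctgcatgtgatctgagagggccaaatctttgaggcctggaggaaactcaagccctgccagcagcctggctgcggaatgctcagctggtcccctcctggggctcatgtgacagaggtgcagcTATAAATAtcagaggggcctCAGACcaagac
Mstn: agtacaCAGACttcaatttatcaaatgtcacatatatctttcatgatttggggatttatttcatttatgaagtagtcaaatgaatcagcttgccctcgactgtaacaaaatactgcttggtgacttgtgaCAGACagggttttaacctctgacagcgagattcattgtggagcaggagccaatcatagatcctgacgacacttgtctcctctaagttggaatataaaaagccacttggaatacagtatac
Foxo1: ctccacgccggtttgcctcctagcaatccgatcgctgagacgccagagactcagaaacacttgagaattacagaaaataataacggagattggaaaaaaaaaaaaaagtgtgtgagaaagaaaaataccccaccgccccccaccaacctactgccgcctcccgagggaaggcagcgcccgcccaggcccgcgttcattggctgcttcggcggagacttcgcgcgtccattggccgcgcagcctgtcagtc
The windows of the other 3 genes are not shown, since they are not wholly upstream of every annotated start. That of Fbxo30 (chr10:11281337-11281586) lies after the start used in the peak tables, that of Klf15 (chr6:90462326-90462575) lies after the gene's first base in RefSeq, and that of Foxo3 (chr10:42276696-42276945, - strand) spans the start in the peak tables. Positions are counted back from the start, the base just before it being -1. In Trim63 a SMAD half-site at -203 overlapped a glucocorticoid receptor half-site at -200, and a FoxO element followed at -194. The FoxO element occurred in 3.17% and the glucocorticoid receptor half-site in 16.1% of all 32851 reference promoter windows of this length. Trim63 was also the member whose letters matched the MEF2 core, by TATAAATA at -31 on the reverse strand. A match to this core was held by 3.9% of windows, and whether MEF2 binds there was not tested. None of the FoxO element, the glucocorticoid receptor half-site and the MEF2 core was matched in the other 5 promoters. The E-box CANNTG, not capitalised here, matched 4 times in Mstn, 3 times in Trim63, 2 times in Klf15 and 1 time in Foxo1, and 66.2% of windows held at least 1. The SMAD half-site matched 2 times each in Trim63 and Mstn and 1 time in Klf15, with 42.2% of windows holding it. The whole SMAD element GTCTAGAC, the insulin response element CAAAACA and the ERR element AAGGTCA matched in none of the 6 promoters, and were found in 0.167%, 5.56% and 4.08% of windows.

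The 6 promoter windows fell into a CpG-rich and a CpG-poor kind. Fbxo30 held 40 CpG dinucleotides with 80.4% GC, Klf15 held 37 with 72% GC, Foxo3 held 31 with 76.4% GC and Foxo1 held 20 with 56% GC. Trim63 held 4 CpG and Mstn 3, against a median of 6 over all windows, and the Mstn window had 38.4% GC, higher than in 9% of windows.

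All 8 genes carried an H3K27ac peak across the start site in both lists. By tags per kb, these peaks ranked in control from Fbxo30 (106.6 in C2 and 118 in C3), Foxo3 (93.4 and 94.7), Klf15 (81 and 87.6), Foxo1 (77.5 and 79.5), Fbxo32 (63.2 and 82.4), Trim63 (59.1 and 70.8) and Mstn (50.5 and 58.3) to Foxo4 (44.5 and 47.9). Foxo1 and Fbxo32 overlapped in their libraries, as did Fbxo32 and Trim63, and the other neighbours in this order did not. The order in detrained mice was Fbxo30 (119.5 in Ex1 and 103.8 in Ex2), Foxo3 (109.3 and 104.5), Klf15 (100.1 and 95.8), Fbxo32 (97.5 and 92.8), Foxo1 (69.3 and 72.7), Trim63 (59.6 and 58.3), Mstn (47.9 and 50.4) and Foxo4 (41.6 and 37). Here Fbxo30 and Foxo3 overlapped, as did Klf15 and Fbxo32. The Fbxo32 peak was 16.7 kb long in control and 7.16 kb in detrained mice, so its levels in the lists are not of the same stretch. The 2 genes with few CpG, Trim63 and Mstn, lay below the other 4 with a reference promoter in each list, a description of 6 genes. Among the 10776 control peaks across a start site, the Fbxo30 peak was denser than 93.8% and the Foxo4 peak denser than 30.5%.

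**Figure D1:**
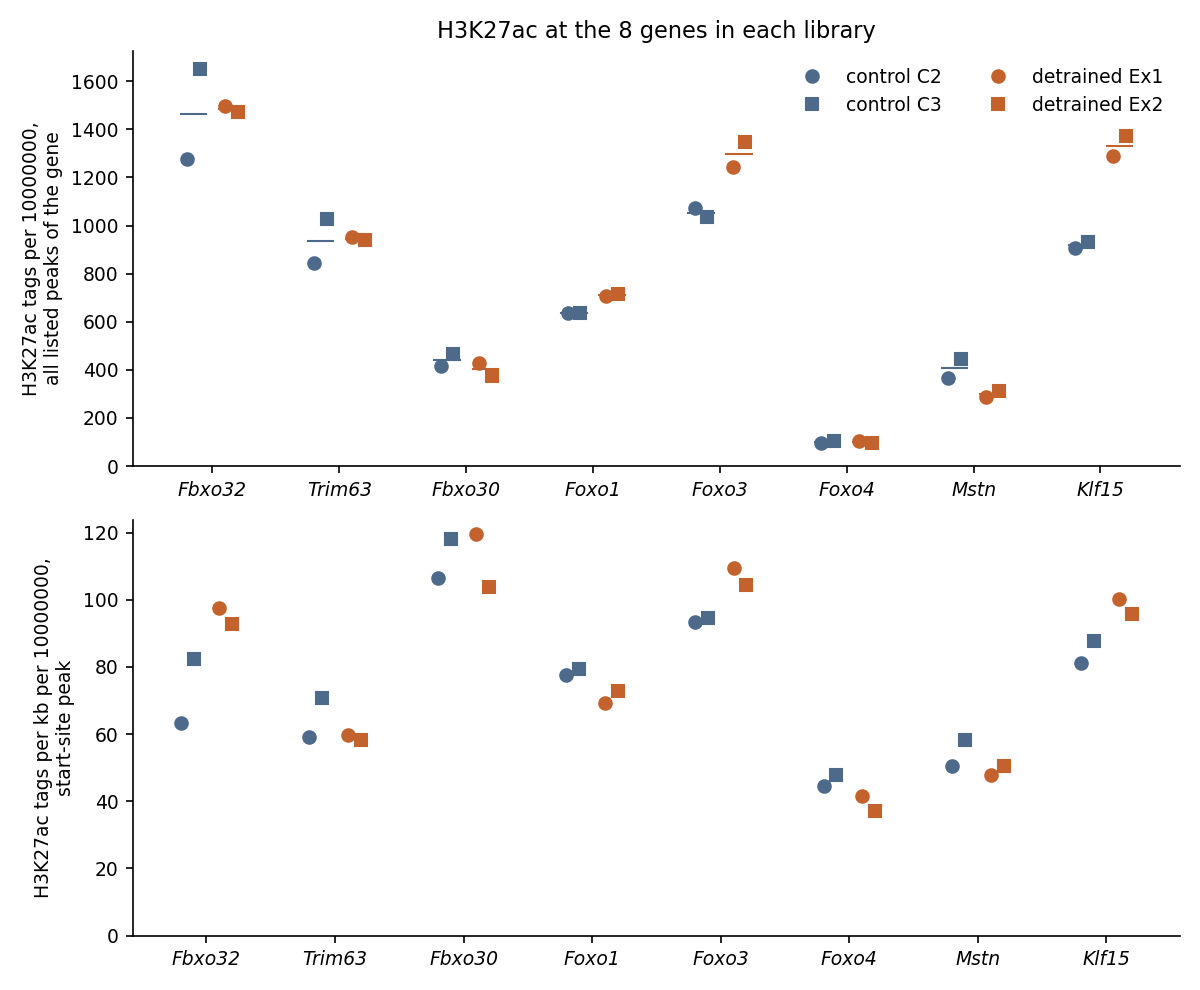
H3K27ac in each library: the upper panel plots scaled tags (per 10000000) summed over all listed peaks of a gene, with bars at group means, and the lower panel tags per kb at the start-site peak. Circles are C2 and Ex1, squares C3 and Ex2, blue control and orange detrained; Klf15 and Foxo3 sums lie higher and Mstn sums lower in both detrained libraries, and C2 and C3 lie far apart at Fbxo32.

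In control mice the longest single peaks of the 8 genes lay at the ligase genes Fbxo32 and Trim63, whereas Foxo3 had the largest covered length over all its peaks (25.4 kb in control and 30.6 kb in detrained mice). Fbxo32 encodes atrogin-1, the F-box subunit that recruits substrates to an SCF ubiquitin ligase. In control mice its start-site peak ran from 1.48 kb upstream to 15.2 kb into the gene (chr15:58199704-58216376, - strand), a length of 16.7 kb that exceeded 99.7% of control peaks. In detrained mice the same stretch was listed as 2 peaks, 1 of 7.16 kb over the start site (chr15:58209389-58216546) and 1 of 9.6 kb in the gene (chr15:58198024-58207623). Listed peaks covered 58.1% of the 39 kb gene in control and 62.8% in detrained mice. Trim63 encodes MuRF1, a RING finger ligase of the sarcomere, and its control start-site peak of 12.5 kb (chr4:134309090-134321616) had a separate peak of 2.45 kb just upstream. A single detrained peak of 15.9 kb (chr4:134306041-134321901) overlapped both, beginning just after the start of the upstream one (chr4:134305984-134308431). The peak tables call the control peak exonic and the detrained peak intergenic, since the annotation follows the peak centre, which moved from 0.23 kb after the start to 1.15 kb before it.

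Over these broad regions as a whole, the groups overlapped. Over the Fbxo32 start-site region, with peaks that touch merged, C2 held 1073 scaled tags, C3 held 1395, Ex1 held 1225 and Ex2 held 1189. Both detrained libraries lay between the control libraries, and the log2 ratio was -0.02. At the Trim63 region the values were 833.7 and 1016 in control and 945.5 and 924.8 in detrained mice, again with the detrained libraries between the controls and a log2 ratio of 0.02. The start-site peak of Trim63 taken alone overlapped in tags per kb (59.1 and 70.8 against 59.6 and 58.3, log2 ratio -0.13), and in tags per peak, the detrained peak being longer, both detrained libraries were higher (740 and 886.6 against 945.5 and 924.8, log2 ratio 0.21). The SD between libraries of a group was 0.19 on the log2 scale for the summed tags of Fbxo32 and 0.14 for those of Trim63, and most of it came from the control pair.

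The other shared Fbxo32 peaks and those of Fbxo30 were shorter than these regions. A peak in Fbxo32 21.2 kb after the start held 28.9 (C2) and 37.4 (C3) tags per kb in control and 26.6 and 26.3 in detrained mice, so both detrained libraries were lower, with a log2 ratio of -0.31. That peak was listed with 4.1 kb in control and 6.77 kb in detrained mice, and its scaled tags were higher in both detrained libraries (118.2 and 152.9 against 180.2 and 178.1). At 27.6 kb after the start and 5.59 kb before it the Fbxo32 libraries overlapped, with log2 ratios of -0.07 and 0.02. Fbxo30 encodes MUSA1, another F-box subunit that is induced with loss of muscle mass, and its promoter peak held 106.6 and 118.1 tags per kb in control and 119.6 and 103.9 in detrained mice. The libraries overlapped and the log2 ratio was -0.01, with a counting interval (95%, exact, counting error only) from -0.11 to 0.09. Its 4 other peaks, 2 in each list, held 27 to 181 tags of both libraries together and overlapped no peak of the other list.

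**Figure D2:**
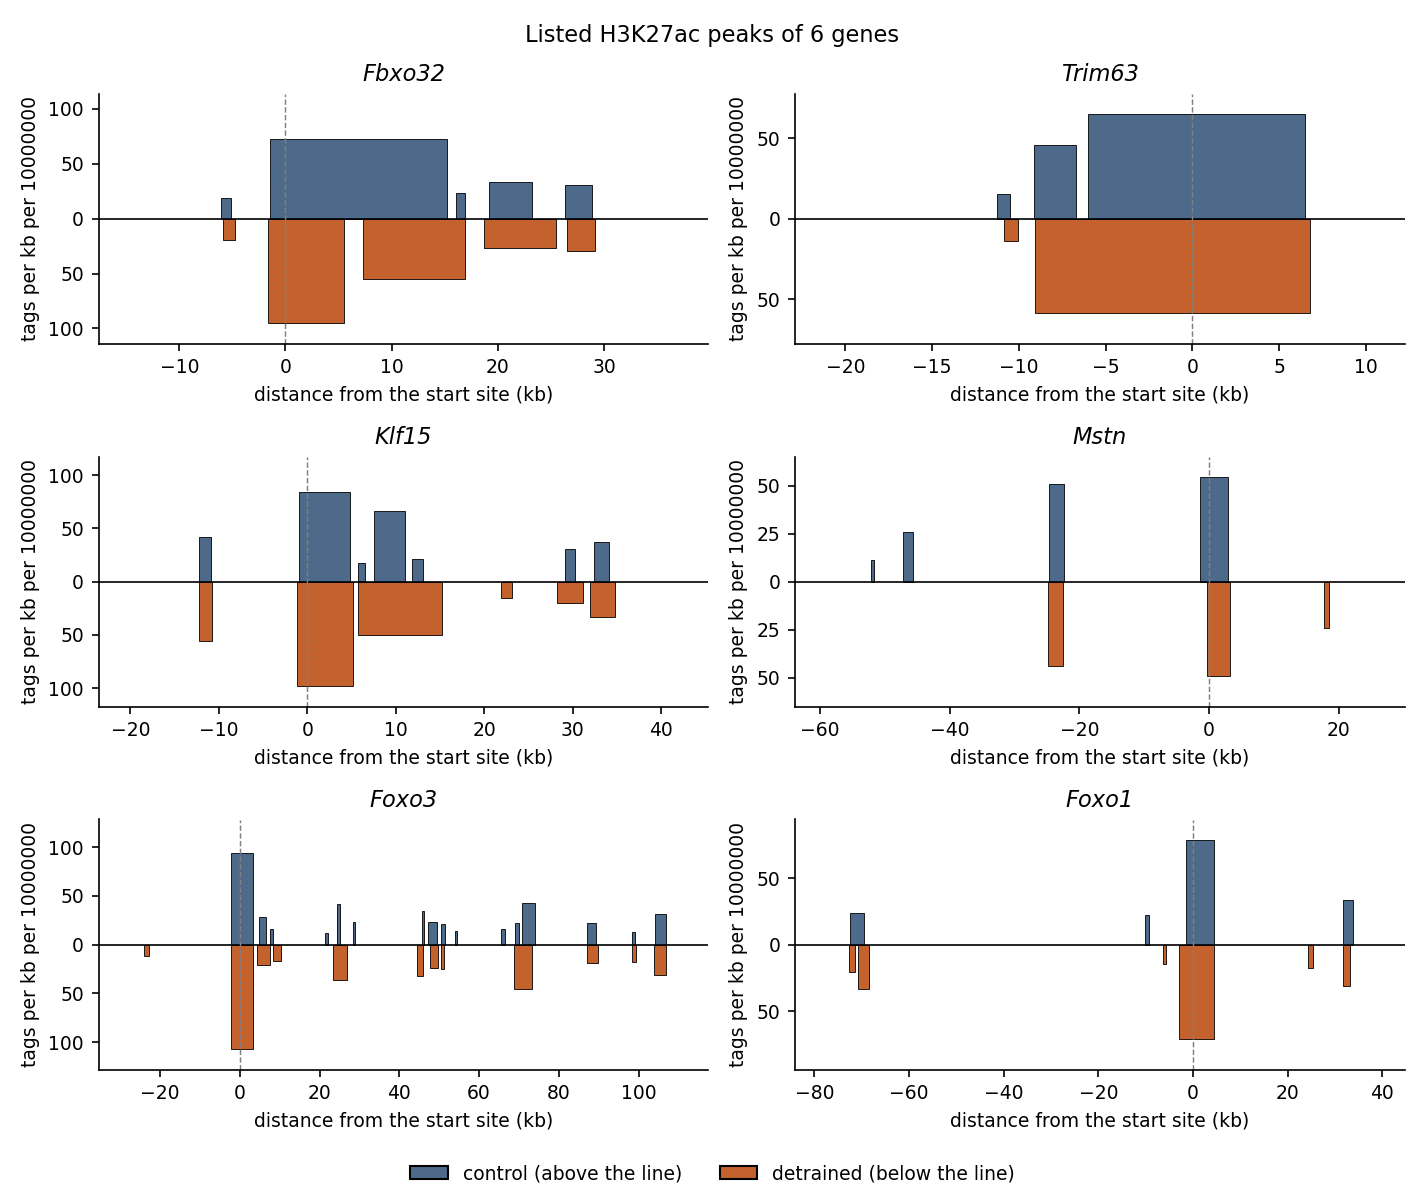
Listed H3K27ac peaks of 6 genes by distance from the start site in kb (gene orientation, start at the dashed line), with height in tags per kb; blue bars above the line are control and orange bars below it detrained. The 16.7 kb control peak of Fbxo32 faces 2 detrained peaks, and 3 control peaks inside Klf15 face 1 detrained peak of 9.42 kb.

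Among the FoxO genes, Foxo3 was higher, and Foxo1 and Foxo4 were lower, in tags per kb at the start site. The Foxo3 start-site peak (chr10:42273395-42278970 in control, - strand) held 93.4 and 94.7 tags per kb in control and 109.4 and 104.5 in detrained mice. Both detrained libraries were above both controls, with a log2 ratio of 0.18, a counting interval from 0.10 to 0.27 and an SD between libraries of 0.03. The peak had nearly the same length in the lists, 5.58 and 5.48 kb. Foxo1 (chr3:52266806-52272786 in control) held 77.6 and 79.6 tags per kb in control and 69.3 and 72.7 in detrained mice, so both detrained libraries were lower, with a log2 ratio of -0.15, but the libraries overlapped when scaled to tags in listed peaks. Its peak was longer in detrained mice, 7.51 against 5.98 kb, and in tags per peak the ratio turned to 0.18. Foxo4 had 1 promoter peak on chromosome X in each list, with 44.6 and 48 tags per kb in control and 41.7 and 37.1 in detrained mice, a log2 ratio of -0.23 that was 0.02 in tags per peak.

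Foxo3 also had the most peaks of the 8 genes, 16 in control and 12 in detrained mice, spread over its 94.9 kb gene and beyond the gene's end, with 1 detrained peak 23.4 kb upstream. Of the 16 control peaks 14 were intronic, and 11 overlapped a detrained peak. In 7 one-to-one shared pairs the log2 ratio ranged from -0.27 to 0.46, and the highest was at a weak peak 98.7 kb after the start (11.5 and 14.6 tags per kb in control, 19 and 16.7 in detrained mice). There the counting interval, from -0.09 to 1.00, held 0. About 72.4 kb after the start, 2 control peaks and 1 detrained peak formed a region with 168.3 and 154.1 scaled tags in control and 186.2 and 209.2 in detrained mice, at almost equal covered length (4.36 and 4.38 kb). Its log2 ratio was 0.29, and both detrained libraries were higher. At 24.8 kb after the start a control peak of 631 bp with 27.5 and 24.5 scaled tags lay inside a detrained peak of 3.41 kb with 102.6 and 146, so the tags differed by 2.24 on the log2 scale and the tags per kb by -0.20.

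At Mstn the summed H3K27ac was lower in both detrained libraries. Over all its listed peaks C2 held 366.2 scaled tags, C3 held 447.2, Ex1 held 285.1 and Ex2 held 312.1, a log2 ratio of -0.44 with an SD between libraries of 0.16. This ratio was lower than that of 88.8% of the 13524 genes with peaks in both lists. The covered length was also smaller, 6.73 kb against 8.86 kb, and in tags per kb of covered length the ratio was -0.04. The start-site peak began 1.41 kb upstream in control mice and 0.27 kb upstream in detrained mice (chr1:53060229-53064619 and chr1:53061370-53064893), so the printed window of 250 bases lay at its edge in the detrained list. In tags per kb this peak held 50.5 and 58.3 in control and 48 and 50.4 in detrained mice, with a log2 ratio of -0.14 and both detrained libraries lower, although Ex2 was below C2 by under 0.1 tags per kb. The Mstn start-site ratio was -0.04 without C3 and -0.25 without C2, and the libraries overlapped when scaled to tags in listed peaks, when centred on the median of all shared peaks and with 5 added tags. A peak 23.5 kb upstream overlapped between groups at a log2 ratio of -0.21 (44.6, 57.8, 41.3 and 46.6 tags per kb in C2, C3, Ex1 and Ex2). Peaks 46.4 and 51.9 kb upstream were listed in control mice only, with 183 and 25 tags, and 1 peak 18.2 kb after the start in detrained mice only, with 79 tags.

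Klf15 had the highest ratio of summed tags of the 8 genes. Its peaks held 904.7 and 930.9 scaled tags in control and 1289 and 1374 in detrained mice, which is 1.45-fold higher in detrained mice (log2 ratio 0.54, SD between libraries 0.05) and above the ratio of 92.1% of genes with peaks in both lists. Covered length was 15.6 kb in control and 24.1 kb in detrained mice, and in tags per kb of covered length the ratio turned to -0.09. Peaks of matching length were higher too. The start-site peak (chr6:90461584-90467369 in control, 5.79 kb, and 6.25 kb in detrained mice) held 81.1 and 87.7 tags per kb in control and 100.2 and 95.8 in detrained mice, a log2 ratio of 0.22 with a counting interval from 0.13 to 0.30. A peak 11.6 kb upstream (chr6:90450294-90451659) held 38.7 and 45.6 tags per kb in control and 55.2 and 56.2 in detrained mice. Its log2 ratio was 0.41 at almost equal length (1365 and 1389 bp). Both detrained libraries were above both controls at each of these peaks.

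Within the Klf15 gene, 3 control peaks centred 6.16, 9.29 and 12.5 kb after the start faced 1 detrained peak of 9.42 kb (chr6:90468363-90477779). The region held 292.9 and 256.4 scaled tags in control and 433.9 and 506.5 in detrained mice, on 5.57 kb of covered length in control, so the log2 ratio was 0.77 in tags and 0.02 in tags per kb. Across the gene's end at 29.7 kb and beyond it at 33.3 kb after the start, scaled tags were higher in both detrained libraries (ratios 0.74 and 0.58) and tags per kb were -0.59 and -0.15 on the log2 scale, each peak being longer in the detrained list.

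**Figure D3:**
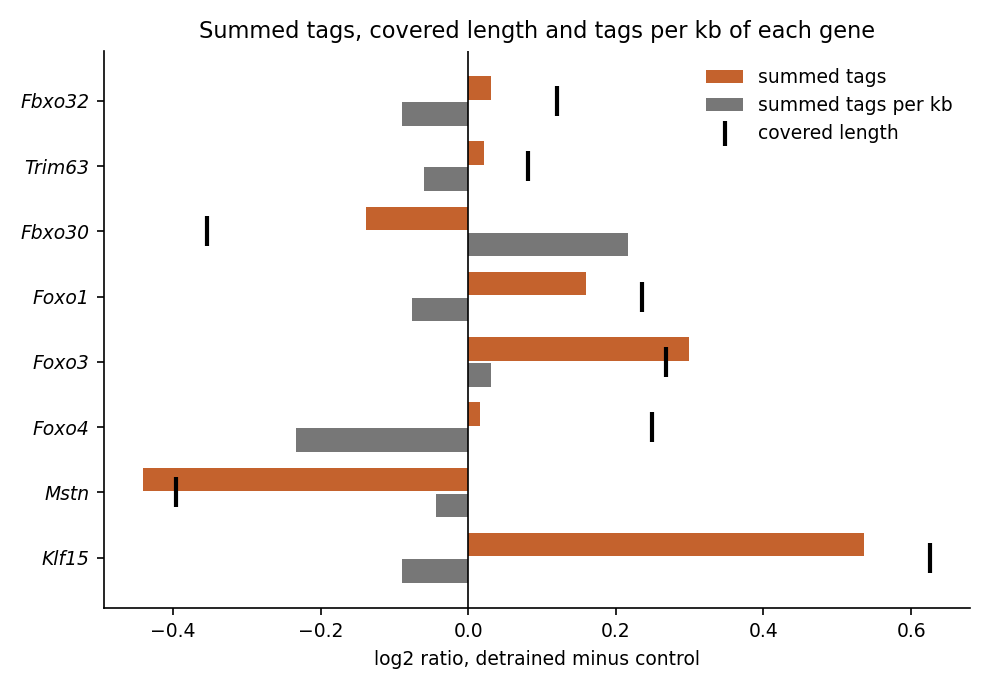
Log2 ratios of detrained over control for each gene: orange bars are tags summed over all listed peaks, grey bars the same per kb of covered length, and black ticks the covered length itself. The large ratios of summed tags, 0.54 at Klf15 and -0.44 at Mstn, lie beside length ratios of 0.63 and -0.40.

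Summed over all listed peaks, Klf15, Foxo3 (1072 and 1034 scaled tags in control, 1244 and 1349 in detrained mice, log2 ratio 0.30) and Foxo1 (635.7 and 636.3 against 707.6 and 713.5, log2 ratio 0.16) were higher in both detrained libraries, Mstn was lower, and Fbxo32, Trim63, Fbxo30 and Foxo4 overlapped. Over all 13524 genes, 24.3% were higher and 35.2% lower by this measure, with a median log2 ratio of -0.05, so 3 higher and 1 lower of 8 genes is a small count to set beside that background. Per kb of covered length, 1 of the 8 genes, Fbxo30, was higher (75.5 and 84.3 in control, 99.1 and 86.8 in detrained mice, log2 ratio 0.22, beside -0.14 in summed tags) and Foxo1, Foxo4 and Klf15 were lower, where 25.5% and 28.1% of all genes were. Foxo3 overlapped per kb, with a log2 ratio of 0.03, its covered length being larger in the detrained list. Summed tags of markers of other cell types moved between the groups as well. Over markers with peaks in both lists, the 3 fibroblast markers summed to 1578 and 1557 scaled tags in control and 1838 and 1913 in detrained mice, the immune markers to 57 and 54.8 against 130.6 and 112.5, and the 2 satellite cell markers to 178.9 and 173.2 against 227.4 and 246.2, all higher in both detrained libraries, whereas the endothelial and fat markers overlapped between the groups. Of the satellite cell markers, Pax7 went from 103.9 to 166.4 scaled tags of both libraries together, and Myf5 held 72.2 and 70.7. Pax7 peaks covered 5.81 kb in control and 9.64 kb in detrained mice, and per kb its log2 ratio was -0.05. Per kb of covered length, 0 of 3 immune and 0 of 2 satellite cell markers were higher, and 1 satellite cell marker was lower. Of the 3 fibroblast markers, 2 were higher per kb and 1 was lower. The part of these markers in the ratios of Klf15, Foxo3 and Foxo1 was not tested. In whole muscle, a change in the share of a cell type and a change in acetylation per cell cannot be told apart.

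The control libraries stood apart from each other at Fbxo32, Trim63 and Mstn. C3 exceeded C2 by 0.37 on the log2 scale in the summed tags of Fbxo32, by 0.28 at Trim63 and by 0.29 at Mstn, more than at 94.4%, 87.5% and 88.2% of genes, against a median of 0.06. At Foxo1, Foxo3 and Klf15 this difference was 0.00, -0.05 and 0.04. The skeletal muscle fibre markers moved with the former, summing to 8801 (C2) and 11063 (C3) in control and 10730 and 10302 in detrained mice over markers with peaks in both lists; their part was not tested. C3 was above C2 at each of these 11 markers. In summed tags, 4 were higher and 2 lower in both detrained libraries. Myh4, the gene of the fast myosin heavy chain IIb, held 75.1 and 83.5 scaled tags in control and 814.2 and 787.5 in detrained mice. It had 3 peaks of 3.76 kb in control and 1 of 10.3 kb in detrained mice. Its log2 ratio was 3.34 in summed tags and 1.89 per kb of covered length. Whether a control peak listed under another gene overlaps this 10.3 kb stretch was not examined. The ratio of summed tags was below 0 at 7 of the 11, and per kb 2 were higher and 1 was lower. Ex1 and Ex2 differed by -0.02 at both Fbxo32 and Trim63.

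Peak by peak, 20 one-to-one pairs of the 8 genes were shared between the lists, with at least 50% of each peak covered. Both detrained libraries were higher in tags per kb at 4 of them, at the start sites of Foxo3 and Klf15 and at 1 distal peak each, and lower at 5, at the start sites of Foxo1, Foxo4 and Mstn and at 1 distal peak each of Fbxo32 and Klf15. Over all 26432 shared pairs 21.3% were higher and 27.2% lower, so the members' 20% and 25% lay near the background. No member pair was 2-fold apart, as were 0.0757% of all pairs, and the median ratio of the members was -0.04, beside -0.03 for all. The median SD between libraries was 0.12 for the members and 0.14 for all pairs.

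**Figure D4:**
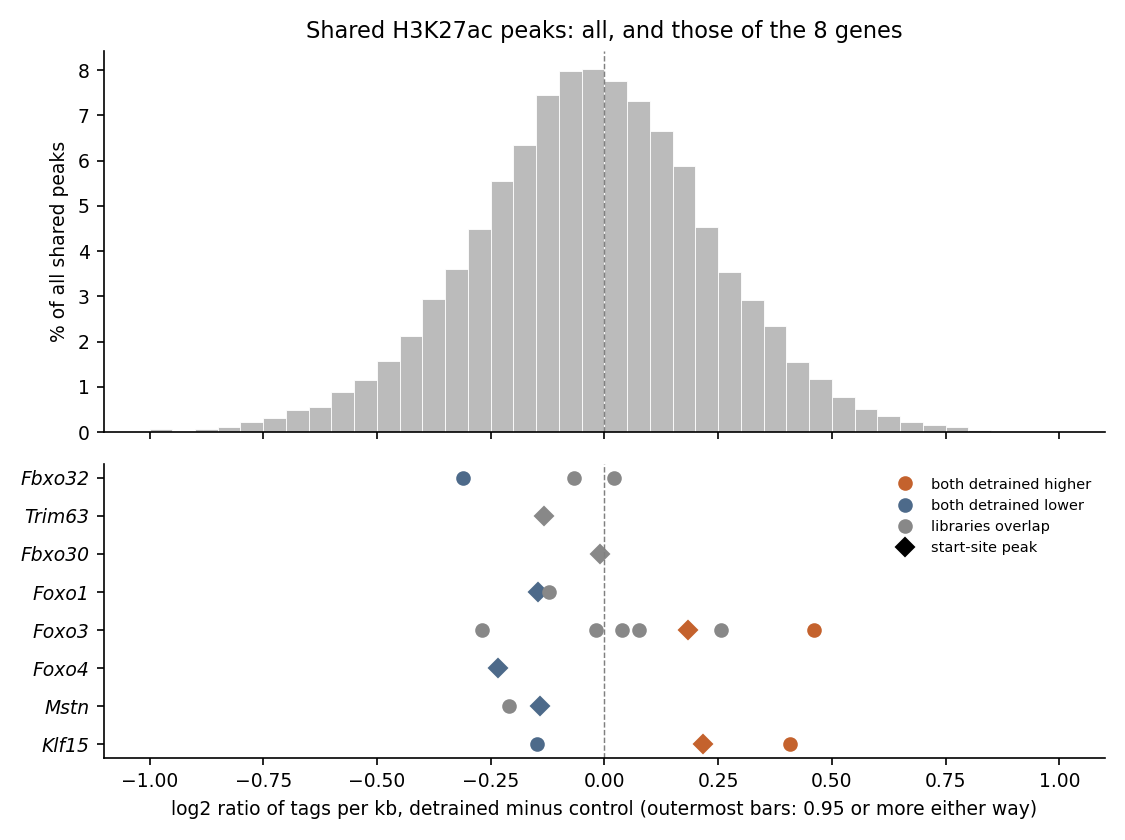
Log2 ratios of tags per kb at shared peaks, detrained over control: the upper panel gives the percent of all 26432 pairs per bin, and the lower panel each of the 20 pairs of the 8 genes, with diamonds for start-site peaks and colour for the side on which both detrained libraries lay. The members run from -0.31 to 0.46, and the 10th and 90th percentiles of all pairs are -0.36 and 0.30, so the pairs of Foxo3 at 0.46 and of Klf15 at 0.41 lie above the latter.

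When peaks that touch were merged across lists, the 8 genes had 46 regions, of which 28 were in both lists, 10 in control only and 8 in detrained only. In scaled tags, 15 of the 28 were higher in both detrained libraries and 2 were lower, where 28.1% and 29.5% of all 31776 such regions were. Per kb of covered length, 6 of the 28 were higher and 7 lower, where 21.5% and 27.1% of all regions were. The median log2 ratio of the members was 0.17 in tags and -0.06 per kb, and their covered length was larger in detrained mice by a median of 0.10 on the log2 scale, beside 0.02 for all regions. Of the 15 regions higher in tags, 14 covered more bases in the detrained list and 6 were higher per kb as well, where 92.6% and 25% of all regions higher in tags did so.

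Of the 43 control peaks of the 8 genes, 33 overlapped a detrained peak (76.7%, 95% exact interval 61.4% to 88.2%), beside 72.1% of all control peaks, and 30 of the 38 peaks in detrained mice had a control partner (78.9%, interval 62.7% to 90.4%), beside 82% of all. No overlapping peak belonged to another gene. The 10 control and 8 detrained peaks listed once held 25 to 183 tags, and the median over all peaks listed once was 64.1 in control and 79 in detrained mice. Introns held 23 control and 18 detrained peaks of the members, and intergenic sequence 15 and 17. Over the input of the same list, the deposited log2 value of a library was higher by 1.28 to 4.05 at control and by 1.36 to 3.70 at detrained member peaks, and Fbxo30's promoter peak had the highest value in C2, C3 and Ex1.

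Around the 8 genes, 73 further genes of the pathway were counted at their strongest shared peak, which 61 of them had. Both detrained libraries were higher in tags per kb at 12 and lower at 22, with a median log2 ratio of -0.07. By group, 1 was higher and 5 lower of 11 genes of myostatin and activin signalling, 5 higher and 7 lower of 16 genes upstream of FoxO, and 6 higher and 10 lower of 34 ubiquitin and other atrophy genes. Over the strongest shared peak of all 12493 genes, 21.9% were higher and 28.7% lower. No pathway gene was 2-fold apart at its strongest shared peak. Summed over all listed peaks, 66 of the 73 genes had peaks in both lists, and 19 were higher and 21 lower, with a median log2 ratio of -0.01. By group, 1 was higher and 6 lower of 14 genes of myostatin and activin signalling, 4 higher and 9 lower of 16 genes upstream of FoxO, and 14 higher and 6 lower of 36 ubiquitin and other atrophy genes, where 24.3% and 35.2% of all genes were. The split of the ubiquitin and other atrophy genes thus turned between the measures. Txnip, an atrophy list gene that encodes thioredoxin-interacting protein, an inhibitor of thioredoxin and of glucose uptake, had no one-to-one shared peak and was named after its values were seen. It held 177.2 and 202.3 scaled tags in control and 1434 and 1394 in detrained mice, a log2 ratio of 2.90, with 2 peaks of 4.54 kb in control and 1 of 13.3 kb in detrained mice. Per kb of covered length its ratio was 1.35. Whether a control peak listed under another gene overlaps the 13.3 kb Txnip peak was not examined. Also chosen after their values were seen, and lower in both detrained libraries by over 2-fold in summed tags, were Inhbb, which encodes an activin subunit (-1.61, and -0.67 per kb), Dach2, a corepressor gene (-1.27, and -0.09 per kb), Igf1 and Pik3ca. Inhbb and Dach2 had 1 weak peak in each list and under 30 scaled tags in each library.

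In tags per kb at the strongest shared peak, the highest ratio among these genes belonged to Map1lc3b, which encodes the autophagosome protein LC3B, with 54 and 58.1 tags per kb in control and 86 and 87.6 in detrained mice. Its log2 ratio of 0.63 was -0.18 in tags per peak, since the peak was shorter in the detrained list. Cdkn1a, the gene of the cell cycle inhibitor p21, held 51.5 and 38.2 in control and 70.7 and 60.3 in detrained mice, with a ratio of 0.56 in tags per kb and 0.46 in tags per peak. The lowest ratio by this measure belonged to Trim54, the gene of MuRF3, with 93.4 and 122.1 in control and 72.4 and 68.2 in detrained mice. Its ratio of -0.60 was -0.03 in tags per peak. Irs2, an adaptor of the insulin receptor, held 117.9 and 132.7 in control and 92.1 and 82.3 in detrained mice, with a ratio of -0.52 in tags per kb and 0.16 in tags per peak. Map1lc3b and Irs2 turned in sign between the scales, and Trim54 came close to 0 in tags per peak.

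Fbxo32 had the most summed tags of the 8 genes in control mice, and 3 other genes came closest to its summed tags over the 4 libraries by Euclidean distance on the log2 scale. They were Myoz2 (distance 0.07, with 1330, 1646, 1464 and 1478 scaled tags in C2, C3, Ex1 and Ex2), Gmpr (0.07) and Picalm (0.08). Myoz2 encodes calsarcin, a protein of the muscle Z-disc. These sums are not per length, and likeness over 4 libraries says that the totals were alike and nothing further.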

How the data were processed

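H3K27ac ChIP-seq libraries and inputs of quadriceps from 2 groups were used. Per the labels and the study's methods, the authors aligned 75-bp reads to mm10 with Bowtie (1.2 in the submitters' processing notes) and called 1 peak list per group against input with HOMER. The labels and methods give different catalogue numbers for the antibody. The deposited signal per peak is the pooled tags of both libraries per 10000000 tags. Each library also has a deposited log2 value, a regularized log from DESeq2 as run by the authors through HOMER, which shrinks weak peaks. The deposited log2 fold over input and adjusted p-value served only to filter peaks.

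Tags per library were the pooled tags shared out by library total and 2 to the power of the log2 value, so differences within a group are understated in weak peaks. Ratios at shared peaks used 0.5 added tags. Gene sums took only peaks annotated to the symbol, and overlap with peaks under another symbol was checked for the 8 members alone. Counting intervals used pooled tags, cover counting error only, and are no measure of spread between mice. Control columns C2 and C3 stand for the group, without a mouse number. Members, lists and rules were chosen with earlier results of these data known. Named were all 8 members, the 2 highest and 2 lowest pathway genes at the strongest shared peak and any 2-fold apart there, and the 3 genes nearest Fbxo32. Txnip, Inhbb, Dach2, Igf1, Pik3ca, Mt1 and Myh4 were named after their values were seen. Alternatives covered scaling, length, overlap, pseudocount, centring, stricter peaks and each library left out. Steps were tested on simulated data. Both simulated lists had the same peaks and lengths, so split peaks, unequal lengths and the shrinking of weak peaks were not covered. Software was matplotlib 3.10.9, scipy 1.17.1, pandas 2.3.3 and numpy 2.4.6 under Python 3.11.15.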

Additional observations from a re-analysis of the deposited data

How the results depend on the processing

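Several results depended on whether peak length was divided out. At the shared peaks of the 8 genes the median log2 ratio, -0.04 as reported, was 0.14 in tags per peak, 0.0081 when scaled to tags in listed peaks, 0.014 with 80% of each peak covered, -0.12 with any one-to-one overlap and -0.13 with stricter peaks (4-fold over input, adjusted p under 0.001). The number of pairs higher went from 4 to 10 of 20 in tags per peak (24.7% of all pairs) and 2 of 15 with stricter peaks (21.8% of all), and the number lower from 5 to 2 in tags per peak (28.8% of all) and 1 of 10 with 80% covered (23.7% of all). In tags per peak the start-site ratio of Foxo1 reversed to 0.18 and that of Foxo4 to 0.015, that of Trim63 went from -0.13 to 0.21 with both detrained libraries higher, and that of Mstn from -0.14 to -0.46. Per kb of covered length the gene sums of Foxo1 and Klf15 reversed to -0.076 and -0.090, 1 gene was higher and 3 were lower, and the merged regions gave a median of -0.063. Scaled to tags in listed peaks, 4 gene sums were higher in place of 3 and 2 lower in place of 1, where 31% and 30% of all genes were. In the same scaling 55.8% of all shared peaks called apart were higher, against 44% as reported. Leaving out 1 library in turn gave a median from -0.10 (without Ex2) to -0.013 (without C3), 5 to 8 pairs higher (8 without Ex1; 28.8% to 38.7% of all pairs), 6 to 9 lower (9 without C2, Ex1 or Ex2; 35.9% to 45.5% of all), 3 to 5 gene sums higher (5 without C3; 27.6% to 38.7% of all genes) and 1 to 4 lower (4 without C2, 3 without Ex1; 39.3% to 51.6% of all); with 1 library fewer, being apart asks for less. With 50% of each peak covered, 46.5% of control and 52.6% of detrained member peaks had a partner (56.3% and 64.9% of all peaks), and with stricter peaks 100% of 19 control and 76% of 25 detrained peaks overlapped (88.7% and 84.6% of all). Of 207 values recomputed under an alternative, 168 stayed within the spread between libraries or near the count reported, 35 moved further and 4 reversed, meaning that the sign turned where the groups were apart as reported. A further 19 of 161 log2 ratios turned in sign where the groups overlapped or the value was a median. Some of the 168 could not change. The settings for overlap and stricter peaks only select pairs, and leave the ratio of a kept pair as it was. No paired analysis was possible because the libraries come from separate mice, no source ties a control to a detrained mouse, and the control columns carry other numbers than the labels. Depth limits the weak peaks most, and 30.9% of control and 22.1% of detrained peaks held under 100 tags.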

Other observations

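The 3 genes named here were chosen after their values were seen; Igf1 and Pik3ca are of the genes upstream of FoxO and Mt1 of the atrophy genes. Igf1, the gene of the growth factor that restrains FoxO, held 1070 and 964.5 scaled tags over its listed peaks in control and 401.8 and 591.8 in detrained mice, a log2 ratio of -1.06 with 7 control and 5 detrained peaks. Covered length was 20.4 kb in control and 13.6 kb in detrained mice, and per kb the ratio was -0.47. At its promoter peak Igf1 held 74.8 and 64.4 tags per kb in control and 44.9 and 58.8 in detrained mice, both detrained libraries being lower. Pik3ca, which encodes a catalytic subunit of PI3 kinase, had a ratio of summed tags of -1.35 that was 0.27 per kb, with 8 control and 2 detrained peaks. Mt1, a metallothionein gene that glucocorticoids induce, held 251.1 and 239.7 in control and 376.3 and 385 in detrained mice, a ratio of 0.63 that was -0.07 per kb.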
